A study of Drosophila melanogaster with 15 samples.

Results

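The cytoplasmic ribosomal protein genes were taken as all genes whose only platform symbol starts with RpL, RpS or RpLP followed by a number. This rule found 41 genes, with 47 probe sets, among the 11981 genes that had 1 symbol on the array. Since 4 of the genes had more than 1 probe set, each gene was read from the one whose mean across the 15 arrays was highest. A further 3 probe sets carried several symbols and were left out, and 51 of the 92 RefSeq genes whose symbols match the rule were not analysed here. The measurements were log2 values from 15 Affymetrix Drosophila arrays, in 5 groups of 3 that the titles call biological replicates.

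All cells came from brains of third-instar (L3) larvae kept under 12 h light and 12 h dark, and were sorted by fluorescence. The ventral lateral neurons (LNvs) are the pacemaker neurons that make the neuropeptide Pdf, 8 per brain by the series description, and they were taken from wild-type larvae (yw, Pdf-Gal4 with UAS-GFP) at zeitgeber time (ZT) 3 and at ZT15, which are hours after lights-on. The per0 LNvs (yw, per0 with Pdf-RFP) and the cyc0 LNvs (yw, Pdf-RFP, cyc0) were taken at ZT15, and they lack the clock repressor Period and the clock activator Cycle. The reference neurons came from elav-Gal4, UAS-GFP larvae at ZT15, in which the pan-neuronal elav driver sets which cells are labelled. Wild-type and elav cells carried GFP and both mutants carried RFP, and the effects of reporter and mutation therefore cannot be told apart. The sorting protocol in the labels names RFP for every array, and the elav arrays have LNvs as their tissue label, although their titles and genotype name elav neurons.

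The ribosome translates messenger RNA through a small subunit, which reads the codons, and a large subunit, which joins the amino acids. Each subunit is built on ribosomal RNA from many proteins that are mostly needed in equal amounts, and loss of a single copy of many of these genes gives the slow-growing Minute flies. A stalk on the large subunit, made of RpLP0, RpLP1 and RpLP2, recruits and activates the elongation factors.

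The labels were checked against marker genes. Pdf stood at 12.50 ± 0.10 (SD, n = 3) in wild-type LNvs at ZT15 and at 3.70 ± 0.73 (n = 3) in elav neurons, while the pan-neuronal markers were split. Of the 3 tested, elav was lower in LNvs (5.58 ± 0.72 against 8.75 ± 0.46), nSyb was higher (6.72 ± 1.32 against 4.50 ± 0.62, adjusted p = 0.0478 by limma) and fne overlapped, at a difference of -0.60. The clock gene per read 6.11, 6.92 and 8.69 in wild-type LNvs at ZT15, 8.11, 5.40 and 7.61 in per0 LNvs, and 2.92, 3.39 and 3.55 in cyc0 LNvs. The transcript of cyc read 4.82, 7.63 and 6.61 in wild-type LNvs at ZT15 and 3.84, 4.86 and 5.42 in cyc0 LNvs. Both mutations are premature stop codons, so the level of per in per0 and of cyc in cyc0 does not check them. The clock targets per and tim were both lower in cyc0 LNvs than in wild type, with tim at 2.98 ± 0.20 against 10.89 ± 0.18 (difference -7.91, adjusted p = 2.25e-07 by limma). Summed over 5 neuroblast markers, the log2 values lay between 24.96 and 33.28 on the elav arrays and between 12.55 and 20.09 on all LNv arrays, and 4 of the 4 tested were lower in wild-type LNvs. Summed over 5 glia markers, the values lay between 22.31 and 28.01 in wild-type LNvs at ZT3, 19.07 and 23.07 at ZT15, 16.22 and 18.27 in per0, 17.81 and 20.99 in cyc0, and 19.75 and 28.24 in elav neurons. Among them Gs2 was higher in wild-type LNvs than in elav neurons (difference 2.03, adjusted p = 0.0346 by limma) and lower in per0 (-3.00, 0.0225) and in cyc0 (-2.33, 0.0448) than in wild type. The gene nrv2 was lower in LNvs than in elav neurons (-2.21, 0.0222), and repo, the defining glial factor, read 2.98 ± 0.18 in wild-type LNvs at ZT15 and 5.61 ± 1.91 at ZT3 (adjusted p = 0.191), and differed by -1.02 between LNvs and elav neurons at ZT15 (adjusted p = 0.440). The hemocyte genes NimC1 and srp, the fat body genes Fbp1 and Fbp2 and the muscle genes Mlc2 and up stayed under log2 4 on all arrays. Summed over 4 hemocyte genes, the values reached at most 10.48 in wild-type LNvs at ZT3, 9.84 at ZT15 and 10.31 in per0. They reached 14.22 in cyc0 and 13.40 in elav neurons. The sums were at most 9.12 over 3 fat body genes and 5.95 over 2 muscle genes. In sorted bulk samples, fewer cells of a type and less RNA per cell cannot be told apart.

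Of the 41 genes, 33 reached log2 4 on at least 3 arrays and were tested, and 30 of these reached that value on all 15 arrays. The 33 were 3 stalk genes, 10 small-subunit genes, 15 large-subunit genes, 2 fusions with ubiquitin and 3 genes named as like a ribosomal protein. The other 8 stayed between 2.31 and 3.58 on every array. Adjusted p-values are from limma, fitted to all 15 arrays and adjusted by the Benjamini-Hochberg method over all 5829 tested probe sets of a comparison, with a threshold of 0.05. Standard errors (SE) are the moderated ones of the same fit. They draw on all tested probe sets and do not measure the spread of a gene's own arrays alone. Values of different probe sets are not on a common scale, so levels are compared between arrays and not between genes. Cell numbers were about 1000 per array by the labels, and the number of arrays limits the precision.

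**Figure D1:**
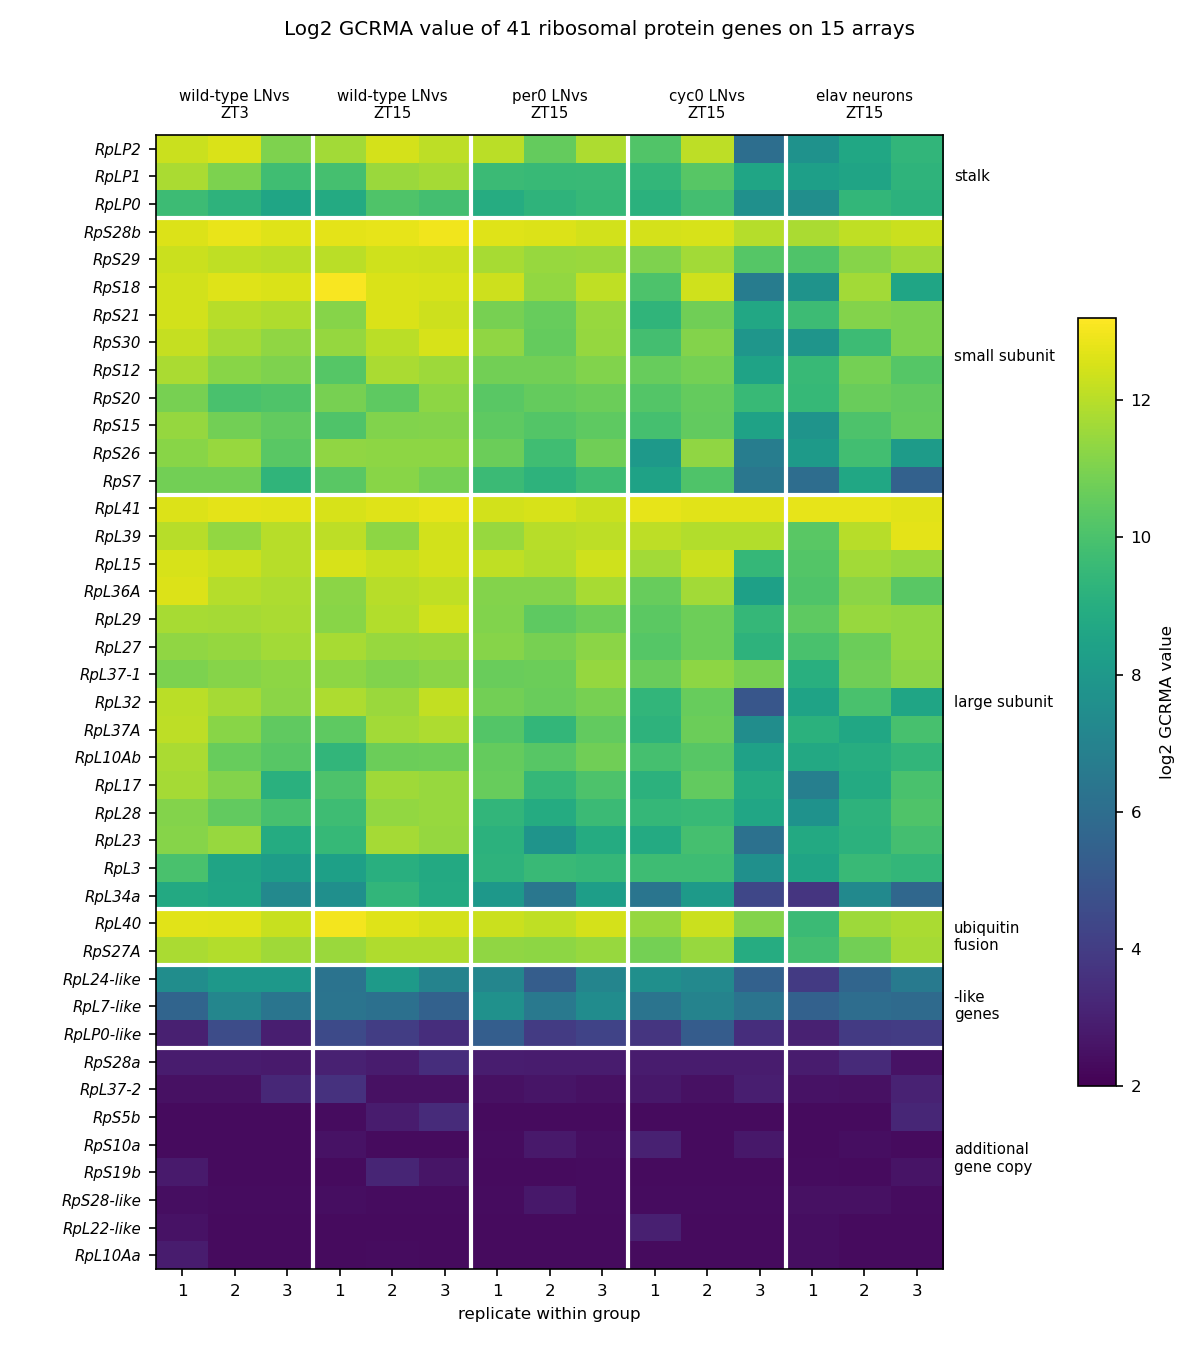
Log2 GCRMA value of the 41 ribosomal protein genes (rows, by class) on the 15 arrays (columns, by group and replicate), with the colour scale at the right. The 8 additional gene copies are dark on every array, and many rows are darkest in cyc0 replicate 3 and elav replicate 1.

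By their array medians, the ribosomal protein genes read higher in wild-type LNvs at both times than in per0 LNvs, cyc0 LNvs and elav neurons. Over the 30 genes that reached log2 4 on every array, the median on an array was, at ZT3 in wild type, 11.78, 11.45 and 11.15, and at ZT15 it was 11.24, 11.62 and 11.74. It was 10.83, 10.56 and 11.01 in per0 LNvs. It was 9.99, 10.75 and 8.54 in cyc0 LNvs, and 8.94, 10.34 and 10.31 in elav neurons. All 6 wild-type arrays lay above all 9 others in this median, while the cyc0 and elav arrays overlapped. The group means were 11.46 ± 0.32 (SD, n = 3), 11.53 ± 0.26, 10.80 ± 0.23, 9.76 ± 1.12 and 9.86 ± 0.80 in the same order.

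**Figure D2:**
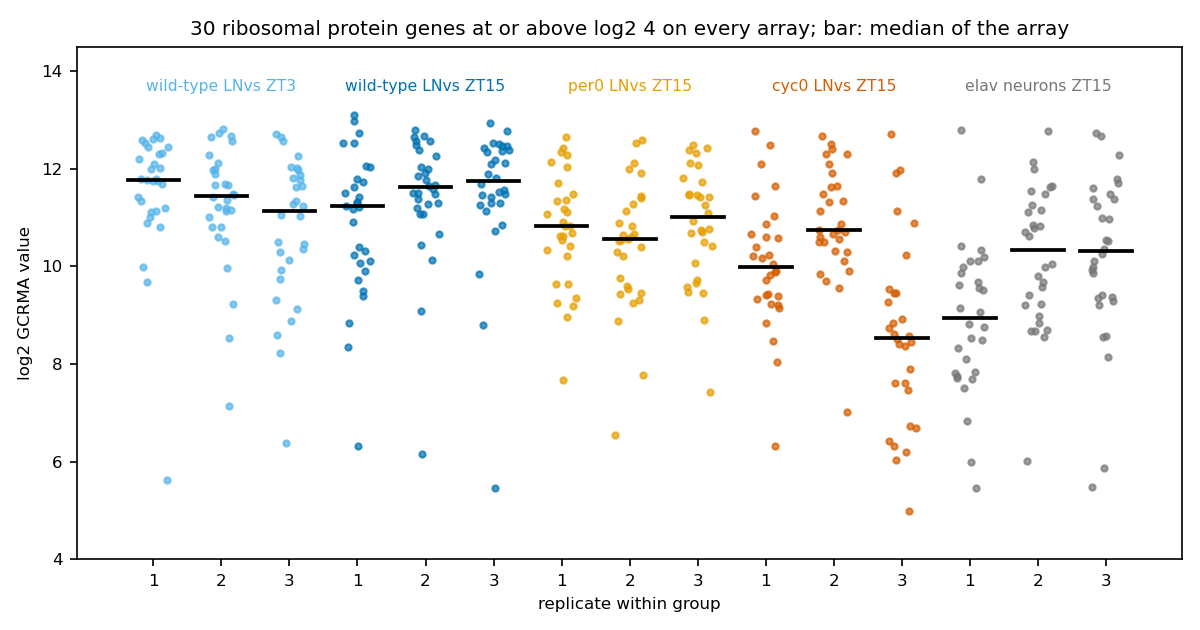
Log2 GCRMA value of the 30 genes that reached log2 4 on all arrays (points), by replicate within the 5 groups, with the median of the array as a black bar. The bars lie between 11.15 and 11.78 in wild-type LNvs and fall to 8.54 in cyc0 replicate 3 and 8.94 in elav replicate 1.

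These 2 arrays stood apart within their groups. In cyc0 replicate 3, 30 of the 33 tested genes read lower than in both other cyc0 arrays, as did 50.2% of all tested probe sets. In elav replicate 1 the same held for 30 of the 33 genes and for 47.4% of all tested probe sets. The lowest value of 15 genes lay on cyc0 replicate 3, and that of 14 on elav replicate 1. The number of probe sets at log2 10 or more was 91 on cyc0 replicate 3, 124, 143 and 105 on the elav arrays, and between 163 and 254 on the other arrays. It was thus lowest on cyc0 replicate 3, but among the elav arrays replicate 3 and not replicate 1 had the fewest. Between 3520 and 5436 of the 18769 probe sets reached log2 4 on an array, and that number was 4043 on cyc0 replicate 3 and 3520 on elav replicate 1. Apart from leaving arrays out, the part of these differences between arrays in the results was not tested, nor was that of the neuroblast and glia markers that differed between the groups.

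The genes differed widely in how much they varied. RpL41, which encodes one of the smallest known proteins, spanned 0.47 on the log2 scale over all 15 arrays, from 12.32 to 12.80. RpS28b, a small-subunit protein near the exit of the messenger RNA, spanned 1.15. Both lie near the highest value of any probe set other than controls, 13.38, and whether signal there is compressed was not tested. At the other end, RpS18 spanned 6.41, RpLP2 6.55 and RpL32, a common reference gene for measuring fly transcripts, 7.18. The lowest value of all 3 lay on cyc0 replicate 3. The median standard deviation within groups was 0.78 over the 33 genes and 0.82 over all tested probe sets.

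Across the 5 groups, a moderated F-test passed for 3 of the 33 genes, or 9.09%, where 14.2% of all tested probe sets passed. Whether these shares differ was not tested. The 3 genes were RpS7 (adjusted p = 0.0164 by limma), RpS21 (0.0316) and RpL32 (0.0404). Among the arrays left out singly, the call was lost without 2 for RpS7, 6 for RpS21 and 12 for RpL32. RpLP2 and RpLP1 followed, both at 0.0566. The least variable between groups by this test were RpL39, whose protein lines the exit tunnel of the large subunit (0.991), RpL41 (0.956) and RpL3, a protein near the catalytic centre (0.876). For RpL41 the moderated test used a larger spread than its own SD within groups of 0.09. All per0 arrays of RpL41 lay below all its cyc0 and all its elav arrays. With each array left out in turn, between 1 and 11 of the 33 genes passed, with 11 without cyc0 replicate 2 and 1 without each of 6 arrays, namely wild-type ZT3 replicates 1 and 2, wild-type ZT15 replicates 2 and 3, cyc0 replicate 1 and elav replicate 1.

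At ZT15 the pacemaker neurons of wild type were set against the elav neurons. All 4 tested neuroblast markers were higher in these elav neurons, so the group is not taken as mature neurons alone. In LNvs 6 of the 33 genes were higher, or 18.2%, where 7.26% of all tested probe sets were higher. None of the 33 was lower, where 5.25% of all were. At an unadjusted p under 0.05 limma gave 15 of the 33 genes, all higher, against 27.2% of all tested probe sets. The median difference was 1.30 over the 33 genes and 0.11 over all tested probe sets, and 31 of the 33 differences were positive. After quantile normalization the median over the 33 was 0.60 and 26 were positive. Over all 41 genes the median was 0.97. Leaving out single arrays gave between 1 and 10 passing genes: 1 without wild-type ZT15 replicate 2, wild-type ZT15 replicate 3 or elav replicate 1, 3 without wild-type ZT3 replicate 2, per0 replicate 1, per0 replicate 3 or cyc0 replicate 1, 9 without cyc0 replicate 3, and 10 without cyc0 replicate 2.

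**Figure D3:**
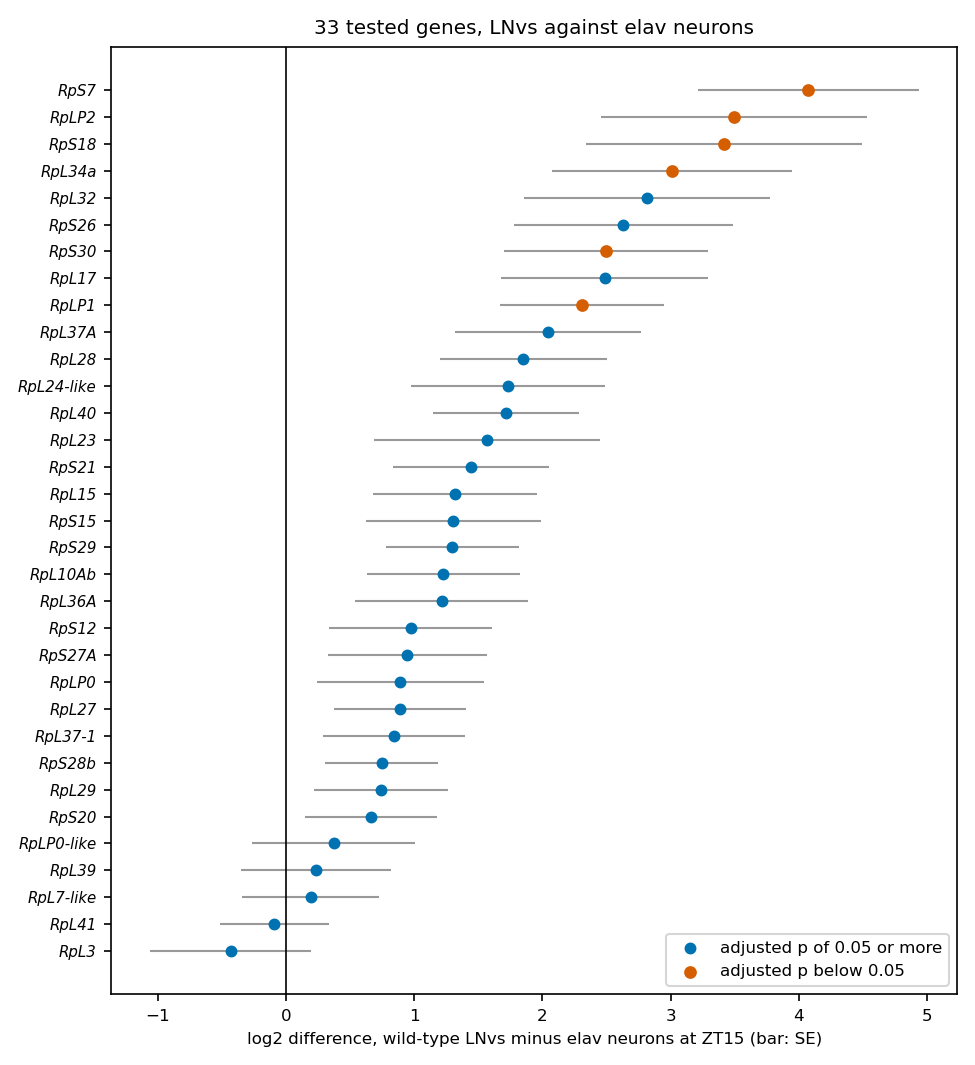
Log2 difference of each of the 33 tested genes, wild-type LNvs minus elav neurons at ZT15 (points, with the SE as bars), ordered by size. The 6 genes with an adjusted p below 0.05 lie between 2.31 and 4.07, and 31 of the 33 points lie to the right of 0.

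Among the stalk genes, RpLP1 and RpLP2, which encode the acidic proteins that contact the elongation factors, were higher in LNvs. RpLP1 read 9.90, 11.52 and 11.68 in wild-type LNvs and 8.32, 8.56 and 9.29 in elav neurons. All LNv arrays were above all elav arrays, and the difference was 2.31 (SE 0.64, adjusted p = 0.0243 by limma). Its call was lost without wild-type ZT15 replicate 2 or 3 or elav replicate 1 or 2. It was also lost with no filter on low values and in the fit to the groups compared. The same held with cyc0 replicate 3 and elav replicate 1 left out together (adjusted p up to 0.0957 over all alternatives). RpLP2 read 11.63, 12.50 and 12.10 in LNvs and 7.72, 8.67 and 9.36 in elav neurons. These arrays too did not overlap, and the difference was 3.50 (SE 1.04, adjusted p = 0.0347 by limma). Its call was lost without any 1 of the 3 wild-type ZT15 arrays or elav replicate 1 or 2. It was also lost after quantile normalization and with no filter on low values (adjusted p up to 0.211 over all alternatives). RpLP0, which anchors both proteins to the ribosome, read 8.84, 10.13 and 9.85 in LNvs and 7.52, 9.41 and 9.22 in elav neurons. The arrays overlapped, at a difference of 0.89 (SE 0.65, adjusted p = 0.407).

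In the small subunit 3 of 10 genes were higher in LNvs, where 7.26% of all tested probe sets were. The 10 differences ran from 0.66 to 4.07 with a median of 1.37. RpS7, a structural protein of the small subunit, read 10.32, 11.20 and 10.85 in LNvs and 5.99, 8.69 and 5.48 in elav neurons. The elav arrays were all lower but spread over more than 3 log2 units. The difference was 4.07, or 16.8-fold (SE 0.86, adjusted p = 0.0048 by limma), and it passed with each array left out. A second probe set of RpS7 stayed between 2.33 and 3.20 on all arrays, and with both averaged the difference was 2.18.

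RpS18, in the head of the small subunit, read 13.10, 12.58 and 12.52 in LNvs and 7.75, 11.63 and 8.56 in elav neurons. The LNv arrays lay close together, and elav replicate 2 came within 1 log2 unit of them. The difference was 3.42 (SE 1.07, adjusted p = 0.0452 by limma). RpS30, which mammals make fused to a ubiquitin-like protein, read 11.43, 12.05 and 12.52 in LNvs and 7.84, 9.68 and 11.00 in elav neurons. The groups did not overlap, but elav replicate 3 was close to the lowest LNv array, at a difference of 2.50 (SE 0.79, adjusted p = 0.0469 by limma). A second tested probe set of RpS30 lay between 2.98 and 4.18 on all arrays. It gave 0.96 (SE 0.47, adjusted p = 0.195 by limma), with no overlap. The calls of RpS18 and RpS30 stood near the threshold. That of RpS18 held only without cyc0 replicate 2, cyc0 replicate 3 or elav replicate 2 among the single arrays left out, and that of RpS30 only without cyc0 replicate 2, cyc0 replicate 3 or elav replicate 3. RpS18 reached an adjusted p of 0.248 and RpS30 one of 0.214 over all alternatives, and both calls were lost after quantile normalization.

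RpS26, another protein near the messenger RNA exit, missed the threshold by little. It read 11.32, 11.31 and 11.31 in LNvs and 8.11, 9.80 and 8.14 in elav neurons, a difference of 2.63 (SE 0.85, adjusted p = 0.0519). RpS29 was represented by 2 bright probe sets. The one used gave 1.30 (SE 0.52, adjusted p = 0.112) and the other 1.94 (SE 0.74, adjusted p = 0.0958), both with no overlap between the arrays.

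In the large subunit 1 of 15 genes was higher in LNvs, which is close to the background of 7.26% of all tested probe sets. The 15 differences ran from -0.43 to 3.01 with a median of 1.23. The 1 higher gene was RpL34a, which read 7.58, 9.38 and 8.86 in LNvs and 3.73, 7.31 and 5.74 in elav neurons. Elav replicate 1 was below the level of 4, and elav replicate 2 came close to the lowest LNv array. The difference was 3.01 (SE 0.94, adjusted p = 0.0430 by limma). Its call was lost without each of 8 arrays, which were wild-type ZT3 replicate 2, wild-type ZT15 replicates 2 and 3, per0 replicates 1 and 3, cyc0 replicate 1 and elav replicates 1 and 3 (adjusted p up to 0.225 over all alternatives).

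RpL17, at the exit tunnel, gave 2.49 (SE 0.81, adjusted p = 0.0519) and RpL32 gave 2.82 (SE 0.96, adjusted p = 0.0634), both with no overlap. The only negative differences were those of RpL3, at -0.43 (SE 0.63, adjusted p = 0.710), and RpL41, at -0.09 (SE 0.43, adjusted p = 0.924). RpL41 read 12.53, 12.67 and 12.77 in LNvs and 12.80, 12.78 and 12.68 in elav neurons, so the groups overlapped within a narrow band.

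The ubiquitin fusions RpL40 and RpS27A encode a ribosomal protein and a copy of ubiquitin in a single polypeptide. RpL40 read 12.98, 12.65 and 12.47 in LNvs and 9.63, 11.54 and 11.79 in elav neurons, with no overlap and a difference of 1.72 (SE 0.57, adjusted p = 0.0572). RpS27A read 11.51, 11.85 and 11.89 in LNvs and 9.87, 10.84 and 11.70 in elav neurons. Its arrays overlapped, at 0.95 (SE 0.62, adjusted p = 0.349).

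**Figure D4:**
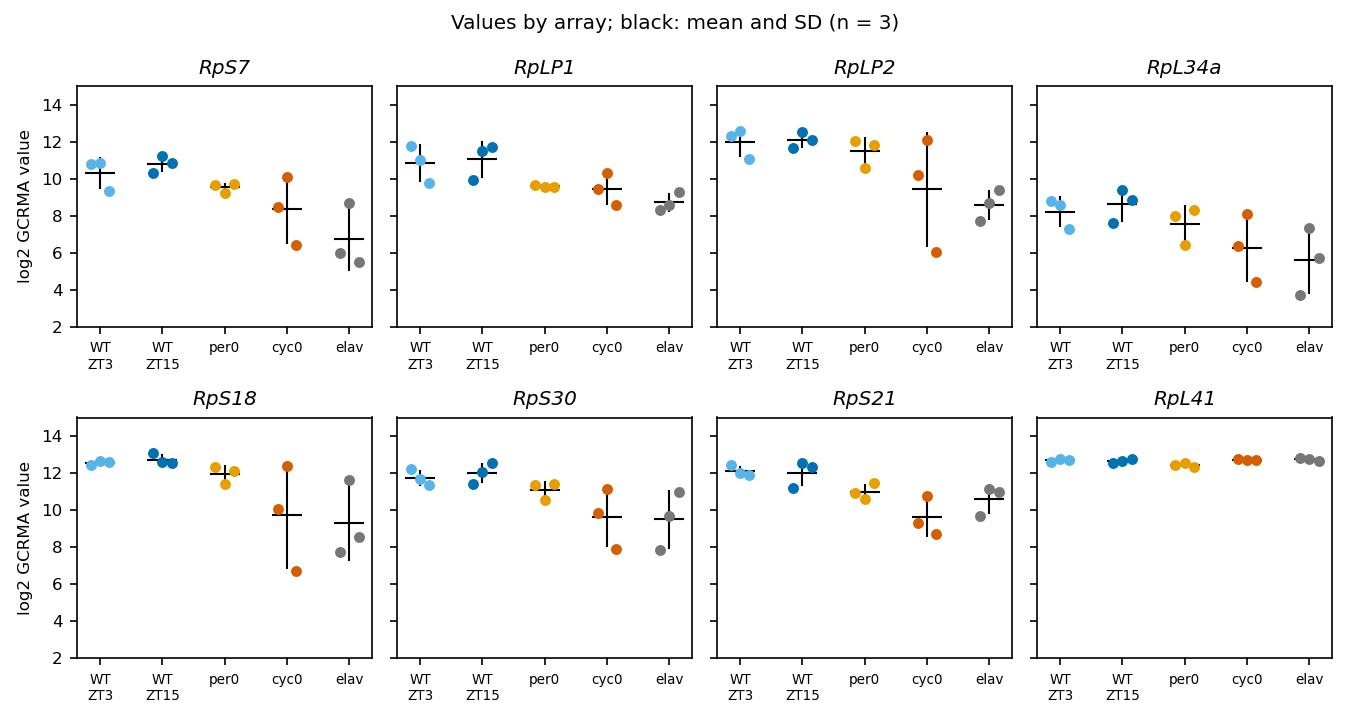
Log2 GCRMA value on each array (points, coloured by group) for the 6 genes called between LNvs and elav neurons, for RpS21 and for RpL41, with the mean and SD of 3 arrays in black. In the first 6 panels the wild-type ZT15 points lie above all elav points, and RpL41 stays between 12.32 and 12.80 on all arrays.

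Seen gene by gene, 17 of the 33 had all 3 wild-type ZT15 arrays above all 3 elav arrays, where 16.5% of all tested probe sets did. The other LNv groups can be set beside this, but all of them share the same elav arrays. At ZT3 18 of the 33 genes were without overlap and higher than in elav neurons (background 18.3%), and the median difference was 1.44. In per0 LNvs this held for 9 genes (background 20.3%) with a median of 0.80, among them RpLP1, RpLP2, RpS7, RpS28b and RpL32. In cyc0 LNvs it held for 1 gene, RpL7-like (background 15.1%), and the median was 0.15. These counts and pairs were chosen after the values had been seen.

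Between the times the ribosomal protein genes of wild-type LNvs stayed close. None of the 33 passed at ZT15 against ZT3, where 0.789% of all tested probe sets passed, and at an unadjusted p under 0.05 limma gave 0 of the 33 and 515 of 5829. The differences ran from -0.68 for RpL24-like to 0.55 for RpS20, with a median of 0.13 against -0.06 over all tested probe sets. The median was -0.02 without wild-type ZT3 replicate 3. All 33 genes had overlapping arrays at the 2 times. RpL24-like read 7.47, 7.97 and 7.96 at ZT3 and 6.28, 8.09 and 7.00 at ZT15 (SE 0.76, adjusted p = 0.909). RpS20, which lies in the head of the small subunit, read 10.90, 9.97 and 10.14 at ZT3 and 10.91, 10.44 and 11.29 at ZT15 (SE 0.51, adjusted p = 0.867). With moderated standard errors from 0.43 to 1.07, differences of this size were not detectable in this fit with 3 arrays per group.

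The comparisons of the mutants with wild type at ZT15 ask how the genes read in LNvs without a working clock. In per0 LNvs none of the 33 genes passed in either direction, where 1.18% of all tested probe sets did, and limma gave 5 of the 33 and 959 of 5829 at an unadjusted p under 0.05. The median difference was -0.46, against 0.24 over all tested probe sets, and 29 of the 33 differences were negative. After quantile normalization the median of all tested probe sets moved to 0.11 and that of the 33 genes to -0.34, so that the 33 lay 0.45 below all tested in place of 0.70, with 25 negative. For 12 genes all per0 arrays lay below all wild-type arrays, or 36.4%, where 7.22% of all tested probe sets did.

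The most negative difference in per0 LNvs was that of RpL23, a large-subunit protein at the subunit interface. It read 9.50, 11.68 and 11.43 in wild type and 9.18, 7.78 and 8.89 in per0. The groups did not overlap, at a difference of -2.25 (SE 0.88, adjusted p = 0.217), although wild-type replicate 1 was near the per0 arrays. RpL28 followed at -1.56 (SE 0.65, adjusted p = 0.246) and RpLP1 at -1.45 (SE 0.64, adjusted p = 0.270). RpL7-like went the other way. It read 6.32, 6.14 and 5.46 in wild type and 7.68, 6.53 and 7.44 in per0, with no overlap and a difference of 1.24 (SE 0.53, adjusted p = 0.261). RpL3 gave 0.69 (SE 0.63, adjusted p = 0.614).

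In cyc0 LNvs 1 of the 33 genes was lower than in wild type, or 3.03%, where 1.37% of all tested probe sets were lower. None of the 33 was higher, while 52.7% of all probe sets that passed were higher. Counts this small among 33 genes are close to the background. At an unadjusted p under 0.05 limma gave 17 of the 33 genes, against 19.4% of all tested probe sets. The median difference was -1.32, against 0.17 over all tested probe sets, and 28 of the 33 were negative. After quantile normalization the median was -0.79 with 27 negative. Without cyc0 replicate 3, the array with the lowest values, the median was -0.82 and no gene passed. Without cyc0 replicate 2 the median was -1.83 and 9 genes passed. For 12 of the 33 all cyc0 arrays lay below all wild-type arrays, where 7.15% of all tested probe sets did.

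The gene that passed was RpS21, a small-subunit protein whose loss in Drosophila larvae leads to overgrowth of the blood-forming organs. It read 11.18, 12.57 and 12.34 in wild type and 9.33, 10.75 and 8.73 in cyc0. The groups did not overlap, and the difference was -2.43, a 5.38-fold lower value (SE 0.61, adjusted p = 0.0393 by limma). The call was lost without wild-type ZT3 replicate 2, wild-type ZT15 replicate 2 or 3, per0 replicate 1, or cyc0 replicate 1 or 3, and after centring (adjusted p up to 0.157 over all alternatives). RpL32 read 11.80, 11.50 and 12.17 in wild type and 9.39, 10.60 and 4.99 in cyc0. Its difference was larger, at -3.50, with a larger error (SE 0.96, adjusted p = 0.0566). RpS18 read 10.06, 12.41 and 6.69 in cyc0, each below the lowest wild-type array at 12.52, and gave -3.01 (SE 1.07, adjusted p = 0.137). In both genes cyc0 replicate 3 lay far below the other cyc0 arrays.

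Among the stalk genes in cyc0 LNvs, RpLP2 read 10.17, 12.09 and 6.03, which overlapped with wild type and gave -2.64 (SE 1.04, adjusted p = 0.178). RpLP1 gave -1.61 (SE 0.64, adjusted p = 0.184) and RpLP0 -0.74 (SE 0.65, adjusted p = 0.569). Both ubiquitin fusions had all cyc0 arrays below all wild-type arrays. RpL40 read 11.44, 12.31 and 11.13 in cyc0 and gave -1.07 (SE 0.57, adjusted p = 0.318), and RpS27A read 10.88, 11.49 and 8.93 and gave -1.32 (SE 0.62, adjusted p = 0.253). The positive differences were small, with 0.58 for RpL7-like (SE 0.53, adjusted p = 0.585 by limma), 0.27 for RpL3 (SE 0.63) and 0.13 for RpLP0-like (SE 0.64). All cyc0 arrays of RpL7-like lay above all wild-type arrays, though only just (6.325 against 6.320 at the closest).

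**Figure D5:**
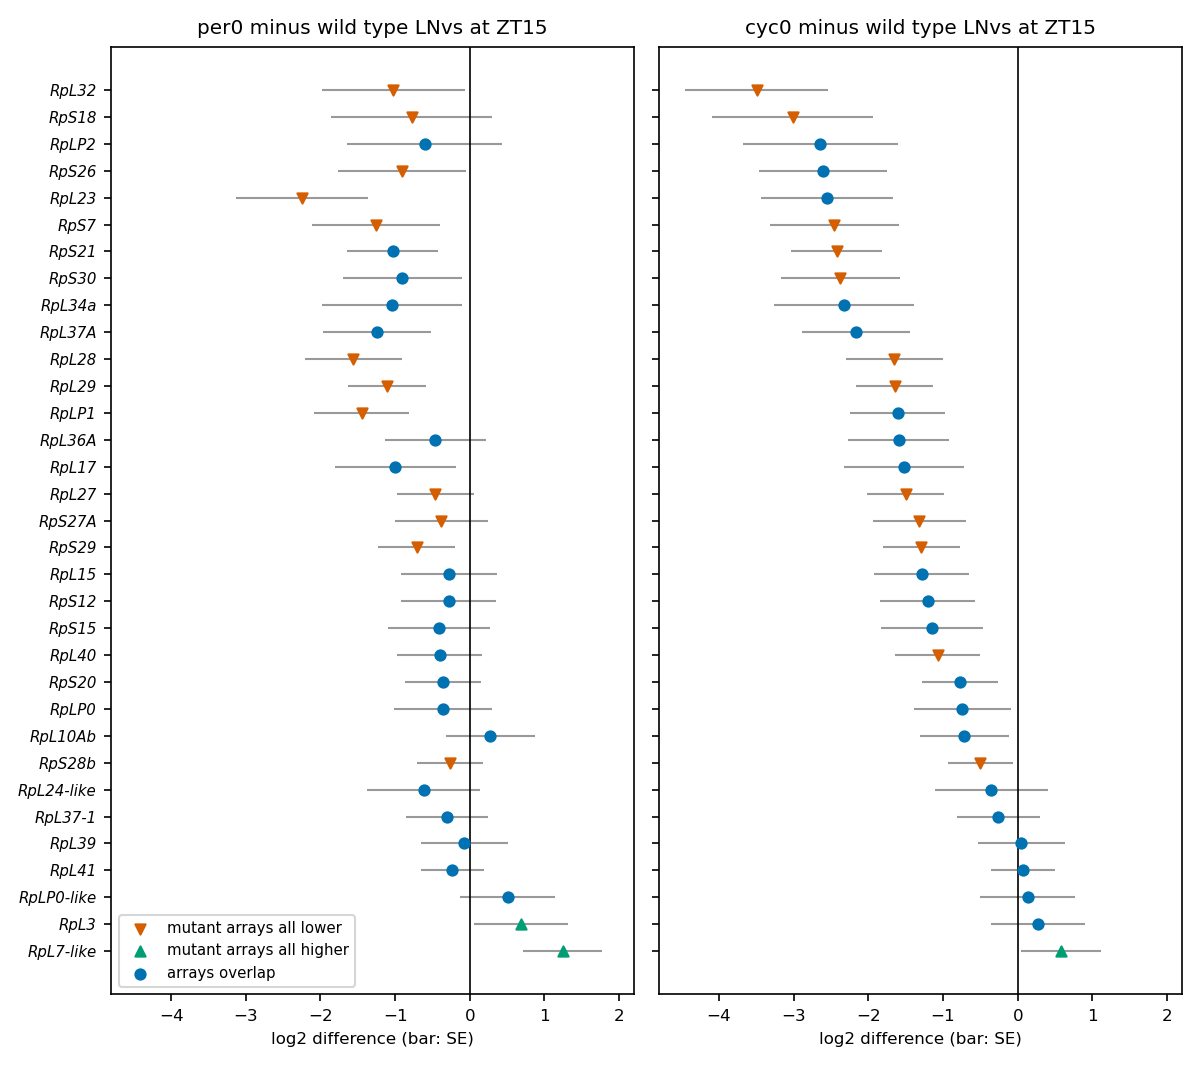
Log2 difference of the 33 tested genes from wild-type LNvs at ZT15, for per0 (left) and cyc0 (right), with the SE as bars and the genes in the order of the cyc0 differences. Symbols show whether all mutant arrays lay below (12 genes in each panel) or above all wild-type arrays; both panels use the same wild-type arrays.

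Set against each other, the mutants did not differ in any of the 33 genes at the threshold, where 0.789% of all tested probe sets did. At an unadjusted p under 0.05 limma gave 2 of the 33, RpL32 and RpS21, and 586 of 5829. The median of cyc0 minus per0 was -0.67, and -0.18 without cyc0 replicate 3. RpL32 gave -2.47 (SE 0.96, adjusted p = 0.388), with all cyc0 arrays below the per0 arrays at 10.83, 10.65 and 10.92. RpS18 gave -2.24 (SE 1.07, adjusted p = 0.503) and RpLP2 -2.04 (SE 1.04, adjusted p = 0.539), both overlapping. RpL41 was 0.30 higher (SE 0.43, limma adjusted p = 0.899), with all cyc0 arrays above all per0 arrays.

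Of the 33 genes, 3 are named as like a ribosomal protein, and by homology to yeast they are assembly factors of the large subunit rather than parts of the finished ribosome. They matched the symbol rule and were kept. Between wild-type LNvs and elav neurons RpL24-like gave 1.73 (SE 0.76, adjusted p = 0.149), RpLP0-like 0.37 (SE 0.64, adjusted p = 0.759) and RpL7-like 0.19 (SE 0.53, adjusted p = 0.864). RpLP0-like lay near the floor, between 2.93 and 5.36 over the 15 arrays. None of the 3 passed in any comparison.

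The 8 genes that stayed under log2 4 on every array were RpL10Aa, RpL22-like, RpL37-2, RpS5b, RpS10a, RpS19b, RpS28a and RpS28-like. All are additional copies of a ribosomal protein gene, and RpL22-like, RpS5b and RpS19b are known for their expression in the fly germline. Where the partner copy was on the array it read high. RpL10Ab, the L1 stalk protein of the ribosome, lay between 8.42 and 11.78, while RpL10Aa reached at most 2.85. RpL37-1 lay between 9.07 and 11.43, while RpL37-2 reached at most 3.58. RpS28b lay between 11.80 and 12.95, with RpS28a at most at 3.48 and RpS28-like at most at 2.73. Probe sets can differ in response, and near-identical copies can share signal, so these values describe each probe set and not the ratio of the copies.

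Genes that work with the ribosome were read from lists of the same pathway. Between wild-type LNvs and elav neurons, none of 4 tested translation elongation genes passed, with a median difference of 0.38, and none of 5 ribosome-associated genes, with a median of 1.51. Tctp, a conserved growth-linked protein, gave 1.51 (SE 0.58, adjusted p = 0.0996) and Rack1, a scaffold on the small subunit, 2.73 (SE 1.28, adjusted p = 0.176). Of 17 ribosome biogenesis genes 1 was lower in LNvs and none higher, with a median of -0.91. Single genes in lists of this size are close to the background of 5.25% lower and 7.26% higher. The 1 lower biogenesis gene was ppan, a large-subunit assembly factor, at 3.12 ± 0.60 in LNvs and 5.52 ± 1.16 in elav neurons (difference -2.40, SE 0.73, adjusted p = 0.0394 by limma). Its value in LNvs lay near the floor. Of 19 genes of growth and the TOR pathway 1 was higher, the kinase gene Pdk1, at 2.91 (SE 0.69, adjusted p = 0.0101), and 1 was lower, the TOR inhibitor gene Tsc1, at -2.77 (SE 0.69, adjusted p = 0.0137). In the other 4 comparisons none of the 45 tested genes of these lists passed, and limma gave 0, 6, 9 and 3 of them at an unadjusted p under 0.05 (between the times, per0, cyc0, and cyc0 against per0), where the shares of all tested probe sets were 8.84%, 16.5%, 19.4% and 10.1%. The biogenesis median was 0.87 in per0 and 0.87 in cyc0 against wild type, where the ribosomal protein genes had medians of -0.46 and -1.32 and all tested probe sets 0.24 and 0.17. Some biogenesis genes lay near the floor in wild-type LNvs at ZT15, such as Polr1B at 2.90 and ppan at 3.12, and others such as Nlp at 8.15 did not. The part of the floor in these medians was not tested.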

How the data were processed

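The deposited log2 values are GCRMA values, per the submitters' processing notes. Which version was run, which arrays were processed together and the genome build were not given in the sources used here. The method models background from probe sequence, so transcripts under background pile up at the floor, which can understate differences against them. The table held 18869 probe sets, of which 100 controls were left out. Of the rest, 13646 had 1 symbol in the platform annotation, 402 several and 4721 were unnamed here.

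Probe sets with log2 of at least 4 on at least 3 of 15 arrays (5829) were fitted in R 4.3.3 with limma 3.58.1, with a mean per group, lmFit and eBayes (prior degrees of freedom 7.46). Two-sided p-values were adjusted (Benjamini-Hochberg) separately for the 5 comparisons and the F-test, with a threshold of 0.05. The fit was tested on simulated data with independent noise, which held no shifts shared by the genes of an array. Replicates are those the titles name. No sequences are printed.

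The members and lists were chosen with earlier results of these data known. The classes of the genes, the set of 30 genes, the counts without overlap and their directions, and the genes drawn by array were set after the values were seen. Genes were named by a written rule: those that passed (up to 12) and the 3 largest differences each way in each comparison, the stalk, paralog and fusion genes, those with the largest or smallest F-test p or level, and up to 4 genes per list with the smallest p. RpS29, RpL17, RpS26 and others beyond it were named after their values were seen. Alternatives were other filters, centring, quantile normalization, another prior, array weights, fits to the compared groups, a replicate block, mean probe sets and arrays left out.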

Additional observations from a re-analysis of the deposited data

How the results depend on the processing

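Counts below are of ribosomal protein genes that passed for LNvs against elav neurons, for cyc0 against wild type and in the F-test, which were 6, 1 and 3 in the fit as reported. With no filter on low values they were 1, 0 and 0, and the 1 gene was not among the 6, whose calls were all lost. With a filter at log2 6 the counts were 9, 2 and 5. They were 5, 0 and 3 after centring, 3, 2 and 3 after quantile normalization, and 13, 3 and 11 when the variance prior followed the mean level and was estimated robustly. Weighting the arrays gave 11, 14 and 16, and 3 for cyc0 against per0, but the estimation of the weights stopped before it converged. Fits to the groups compared gave 4 and 0. Averaging the probe sets of a gene gave 5, 1 and 2. Leaving out each array in turn gave 1 to 10, 0 to 9 and 1 to 11, and 0 to 1 for cyc0 against per0. Arrays left out together were chosen after seeing the data. Without cyc0 replicate 3 and elav replicate 1 the counts were 3, 0 and 1. Without wild-type ZT15 replicate 1 as well they were 5, 0 and 2, and 2 genes passed as lower in per0, RpL28 at -2.13 (limma adjusted p = 0.0451) and RpL23 at -2.94 (0.0465). This version was tried first, and both are given. All other alternatives gave 0 for per0, all gave 0 between the times, and all but those named gave 0 for cyc0 against per0. The median for LNvs against elav neurons moved from 1.30 to 0.60 under quantile normalization. No called difference changed sign. The RpS7 call was lost in 1 of 26 alternatives (no filter, adjusted p = 0.0501), and those of RpLP1 and RpLP2 in 7 each, RpL34a in 12, RpS18 in 18, RpS30 in 19 and RpS21 in 11. The causes were not tested. With the replicate number as a block the counts were 6, 1 and 3, and the RpS30 call was lost. Same-numbered arrays deviated together no more than others (correlations from -0.192 to 0.196, against -0.276 to 0.253). No shared deviation was thus seen, but this cannot exclude that same-numbered samples were handled together. With 3 arrays per group, and 2 of the 5 groups spread widely, small differences cannot be resolved, and values near the floor carry no order.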
